A study of Homo sapiens with 12 samples.

Results

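Among the small noncoding RNAs sequenced in Mono Mac 6 (MM6) cells, 42 piRNA entries of low level were examined. They are the entries of type piRNA that are listed both with and without LPS and whose mean over the 4 genotype means was at least 5 and under 50 normalized counts. They were chosen from 219 piRNA entries present in both tables, of 990 entries of any class in both. MM6 cells are a line of human monocytic origin. The 5-LOΔ MM6 cells are clones of this line in which ALOX5, the gene for 5-lipoxygenase (5-LO), was knocked out with CRISPR/Cas9 delivered by lentivirus. The labels give the genotypes as wild type and ALOX-5 -/- and do not name the clone behind a library. All cells, wild-type and knockout, received TGF-β (1 ng/mL) and calcitriol (50 nM) for 72 h to differentiate them. The 4 groups were wild type and 5-LOΔ without LPS, and wild type and 5-LOΔ stimulated for 6 h with LPS, a component of the outer membrane of bacteria, at 1 µg/mL. Each group held 3 libraries, 12 in all, and the deposited value is the mean of the 3. No SD is given with the means, and single libraries are given where they could be worked out. No test between genotypes was run, and the test columns deposited by the authors were not used. The methods name 2 knockout clones, each with frameshifts in both copies of the gene, and say that both served throughout the study, so 3 knockout libraries cannot come from 3 different clones. The sequencing is described as independent experiments.

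piRNAs are short RNAs bound by PIWI proteins, a branch of the Argonaute family, and are best known from the germline, where they silence transposons. They are made from single-stranded precursors without Dicer, the RNase that cuts miRNA precursors. In body cells, reads filed under a piRNA name often match stretches of tRNAs, rRNAs or snoRNAs, so an entry in such a table is a name given to reads and not evidence of PIWI binding. The study looked at how the small RNA profile changes without 5-LO, which binds Dicer. The tables give names without sequences, lengths or positions, so neither the sequences of the entries nor their overlap with other RNAs were analysed here.

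Of the miRNAs known from blood and myeloid cells, miR-223-3p stood at 58.0 to 93.8, miR-142-3p at 75.1 to 97.9 and miR-21-5p at 2499 to 3885 normalized counts over the 4 means. Those of liver, neurons, muscle and pluripotent cells (miR-122-5p, miR-124-3p, miR-1-3p and miR-302b-3p) were not listed under these names. The means of a table summed to 10757419 (wild type) and 12142907 (5-LOΔ) without LPS and to 9680900 and 10165615 with LPS. Whether the tables were normalized together is not given in the sources used here, so knockout and wild type were compared within a table, and levels set across the tables carry that limit.

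The level of the entries is what chose them and is given as a description. Their single means ran from 1.45 to 85.1 normalized counts. In wild-type cells without LPS the median entry stood at 16.7 (quartiles 11.0 and 27.9), and in 5-LOΔ cells at 12.5 (7.15 and 23.3). With LPS the medians were 23.3 (9.90 and 31.8) in wild-type and 14.3 (6.11 and 20.8) in knockout cells. Summed over the 42 entries, the level was 840 in wild-type against 741 in 5-LOΔ cells without LPS and 1000 against 731 with LPS. These sums are 0.0485% and 0.0391% of all piRNA signal without LPS, and 0.0655% and 0.0475% with LPS, since the 97 abundant entries, with a mean of at least 50, carry nearly all of it. By their mean over the 4 columns, 11 entries lay under 10, 14 from 10 to 20 and 17 from 20 to 50.

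**Figure D1:**
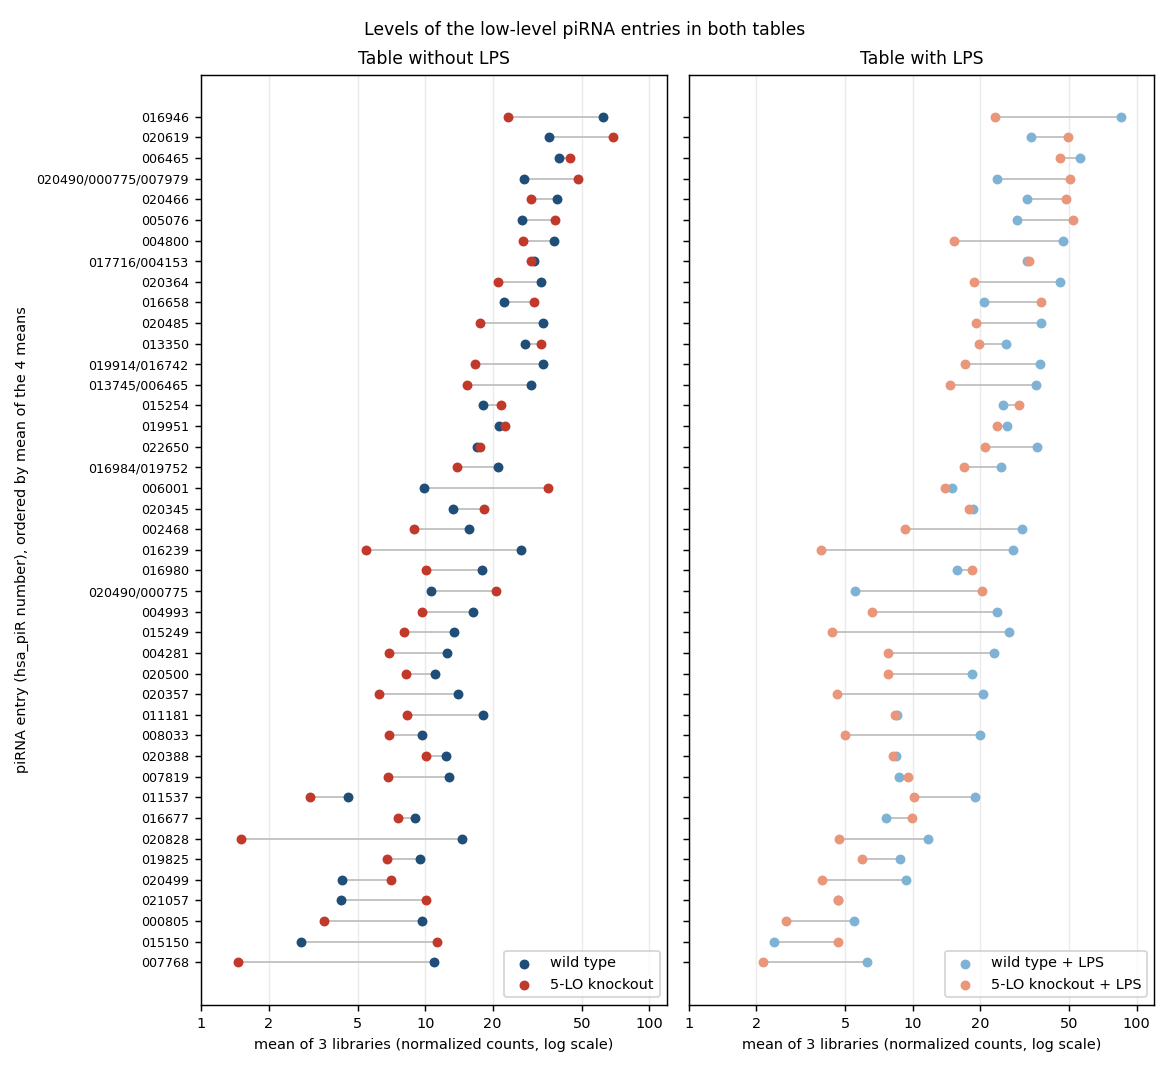
Mean of 3 libraries for each of the 42 low-level piRNA entries (rows, named by their hsa_piR number, ordered by the mean of the 4 means), in normalized counts on a log axis, for wild-type and 5-LOΔ MM6 cells without LPS (left) and with LPS (right). Grey lines join the 2 genotypes, and the knockout point lies to the left of the wild-type point in 27 rows without LPS and in 30 rows with LPS.

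The highest entry by the mean over the 4 columns was hsa_piR_016946 (48.5), followed by hsa_piR_020619 (46.9), hsa_piR_006465 (46.3), the joint entry hsa_piR_020490/hsa_piR_000775/hsa_piR_007979 (37.5) and hsa_piR_020466 (37.3). The lowest were hsa_piR_007768 (5.19), hsa_piR_015150 (5.27), hsa_piR_000805 (5.33), hsa_piR_021057 (5.88) and hsa_piR_020499 (6.12). Just under the lower bound lay hsa_piR_016792 (4.81), hsa_piR_020498 (4.28) and hsa_piR_011496 (4.04). Just above the upper bound lay hsa_piR_019521 (52.6), hsa_piR_010894 (53.4) and the joint entry hsa_piR_019752/hsa_piR_016926/hsa_piR_016984 (54.4). The bounds cut through a continuous range of levels. Entries outside the bounds also lay on either side of equality. hsa_piR_020498 had log2 ratios of knockout to wild type of -2.51 without and -1.83 with LPS, and hsa_piR_019521 of 1.02 and 1.20. Of the 42 entries, 26 had all 4 means from 5 to 50, 11 had a mean under 5 and 5 a mean of at least 50. The highest of the 4 means of an entry was 1.11 to 9.73 times the lowest, with a median of 2.28 times.

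None of the 168 means of these entries was 0. A bound of 5 on the average of 4 means leaves room for a 0, so the rule did not fix this. Among the 80 piRNA entries under the bound, 52 had at least 1 mean at 0, with 81 such means, and among the 97 abundant ones there were 0. Of the 169 entries of other classes in the same range of mean, 3 had a mean at 0, with 5 such means in all.

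Single libraries did reach 0. Because reads are whole and every library has a size factor of its own, the average of 3 libraries is limited to certain values. From these, the reads of each library were worked out for means of up to 20 where they came out in 1 way. Between means of 10 and 20 this evidence is weaker, and in wild-type cells with LPS no mean above 10 gave reads in 1 way. Libraries are called by the rank of their size factor (1.25, 1.02 and 0.883 in wild type, 1.34, 0.945 and 0.725 in 5-LOΔ, 1.72, 1.07 and 0.665 in wild type with LPS, and 1.30, 0.835 and 0.812 in 5-LOΔ with LPS). They cannot be tied to the replicate numbers of the labels. This gave reads for 92 of the 168 means, 24 in wild type and 27 in 5-LOΔ without LPS, 11 and 30 with LPS. Of these 276 library values, 13 were 0 reads and 6 were 1 read. The 0 values fell in 9 entries, with 7 in the library of the smallest size factor, 5 in the middle one and 1 in the largest one of their group. The lowest mean of a group, 1.45 to 2.79 normalized counts, rested on 5 to 10 reads over its 3 libraries. The median entry rested on about 37.6 to 80.6 reads, estimated from the size factors.

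The knockout ratio had the same sign in both tables for 29 of the 42 entries (69.0%), against 74.5% of the 844 entries of any class with a ratio in both. The 2 tables share no library. The study names 2 knockout clones, but the clone behind each library is not given, so the tables may share clones. Of the 29, 22 were lower in 5-LOΔ cells in both tables (37.4% of all entries were) and 7 were higher in both (37.1% of all entries). The other 13 had opposite signs. Both 95% counting intervals, which cover the sampling of reads but not the spread between replicates, excluded 0 for 18 of the 29. For the remaining 11 the sign in at least 1 table lay within the counting error. As an example, hsa_piR_011181 counts as lower in both with log2 ratios of -1.12 and -0.02, which with 1 library left out ran from -1.56 to -0.87 and from -0.52 to 0.40.

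**Figure D2:**
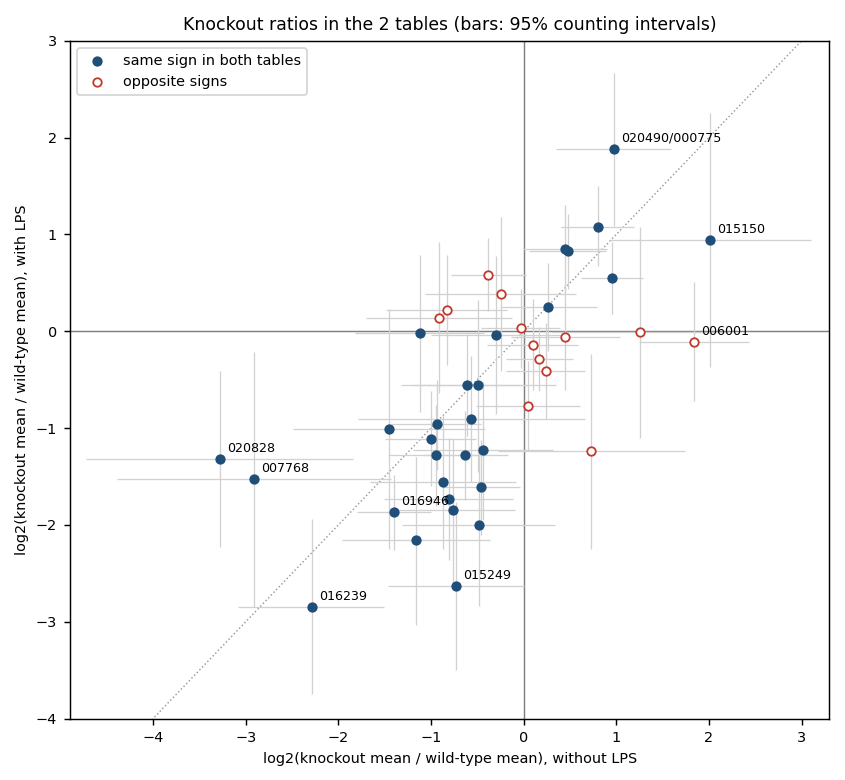
Log2 ratio of the knockout to the wild-type mean for each of the 42 entries, without LPS (x axis) and with LPS (y axis), with 95% counting intervals as bars and a dotted line of equal ratios. Filled points (29) have the same sign in both tables, 22 of them in the lower left and 7 in the upper right, and open points (13) have opposite signs and mostly lie near an axis.

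Without LPS, 27 entries were lower and 15 higher in 5-LOΔ cells, where 51.0% of all entries were lower and 49.0% higher. The counting interval lay under 0 for 18 (29.0% of all entries) and above 0 for 7 (29.6%). A counting interval narrows with more reads, and shares over all entries are not matched for level, here and below. The median log2 ratio was -0.47, beside 0.01 over all entries with a ratio in both tables, and single ratios ran from -3.28 to 2.01. At least 2-fold lower were 8 entries (19.0%, against 10.4% of all entries) and at least 2-fold higher were 3 (7.14%, against 7.33%). Of the 166 entries of other classes with a mean from 5 to 50 and a ratio in both tables, 22 were at least 2-fold lower and 17 higher. With LPS, 30 were lower and 12 higher (51.2% and 48.8% of all entries), with a median of -0.56 beside -0.02 and a range from -2.85 to 1.88. The counting interval lay under 0 for 20 (31.4% of all entries) and above 0 for 6 (31.5%). There, 17 entries were at least 2-fold lower (40.5%, against 11.2% of all entries) and 2 at least 2-fold higher (4.76%, against 6.91%). Of the same 166 entries of other classes, 25 were at least 2-fold lower with LPS and 10 higher. Scaling the genotypes to equal sums of all entries lowers every log2 ratio by 0.17 without and by 0.07 with LPS, and then 13 in place of 8 entries were at least 2-fold lower without LPS, against 13.0% of all entries so scaled. With LPS, 18 in place of 17 were, against 12.8%. Some entries reached the level rule through the genotype where they were high, and 11 had a mean under 5. Among the 31 with all 4 means at least 5, 3 were at least 2-fold lower without LPS (9.68%, against 5.50% of all entries so filtered) and 9 with LPS (29.0%, against 7.43%), and the median with LPS was -0.14. With 10 added to every mean, 3 of the 42 were without LPS (2.52% of all entries) and 8 with LPS (4.87%).

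At least 2-fold lower in both tables were 7 of the 42 entries, against 4.98% of all entries. Of the 166 entries of other classes with a mean from 5 to 50, 14 were. In 5 of the 7 piRNA entries a knockout mean was under 5, and with all 4 means at least 5 there were 2 of 31 (6.45%, against 3.12% of all entries so filtered). By the smaller of its 2 ratios, hsa_piR_016239 led, at 26.7 in wild-type against 5.46 in 5-LOΔ cells without LPS and at 28.0 against 3.90 with LPS, in normalized counts. Its log2 ratios were -2.29 (counting SE 0.40) and -2.85 (0.46), or 4.90- and 7.19-fold lower. The knockout libraries held 7, 4 and 5 reads without and 4, 0 and 7 with LPS, in order of falling size factor, so the level was low in every knockout library. The wild-type means of this entry were too high for reads to be worked out. Against those means, leaving out 1 knockout library gave ratios from -2.50 to -2.14 without and from -4.19 to -2.26 with LPS.

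hsa_piR_007768 stood at 10.9 in wild-type against 1.45 normalized counts in 5-LOΔ cells without LPS, a log2 ratio of -2.91 with a counting interval from -4.39 to -1.43. The wild-type libraries stood at 6.4, 12.8 and 13.6 and the knockout libraries at 2.25, 2.12 and 0, so the groups did not overlap. With LPS the wild-type libraries stood at 4.65, 6.53 and 7.51 and the knockout libraries at 1.54, 0 and 4.93, which overlap. There the log2 ratio was -1.53 (-2.85 to -0.21), and without the knockout library of the middle size factor it was -0.95, without that of the smallest -3.02.

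hsa_piR_020828 had 14.6 against 1.5 normalized counts without LPS, a log2 ratio of -3.28 (-4.72 to -1.84), the lowest among the 42 in that table. Its wild-type libraries lay close together at 15.2, 13.8 and 14.7, and all 6 knockout reads came from the library of the largest size factor (4.49, 0 and 0). With LPS it had 11.7 against 4.69, a log2 ratio of -1.32 (-2.23 to -0.41), and the knockout libraries stood at 3.08, 3.59 and 7.39. The difference between the ratios had a counting interval from 0.26 to 3.67, so the deficit without LPS was larger by more than the counting error.

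Among the more abundant entries, hsa_piR_016946 was lower in knockout cells in both tables, with 62.0 against 23.5 normalized counts without LPS and 85.1 against 23.2 with LPS. The log2 ratios were -1.40 (-1.80 to -1.0) and -1.87 (-2.26 to -1.48). hsa_piR_020357 had 14.0 against 6.24 without LPS, with wild-type libraries at 12, 19.7 and 10.2 and knockout libraries at 8.23, 6.35 and 4.14, which do not overlap. With LPS it had 20.6 against 4.59, a log2 ratio of -2.16 (-3.03 to -1.30), which ran from -2.76 to -1.85 with 1 knockout library left out. Without LPS its ratio of -1.16 became -0.83 when the wild-type library of the middle size factor was left out, and -0.94 without the knockout library of the smallest. hsa_piR_000805, near the lower bound of level, passed 2-fold in both tables (-1.45 and -1.01). The ratio with LPS was -0.98 with all entries centred on their median, and also with 0.1 added to every mean. Without LPS it was -2.08 when the knockout library with the largest size factor was left out. With LPS its ratio ran from -3.15 (knockout library with the largest size factor left out) to -0.39 (wild-type library with the largest left out). It was under 2-fold without any of 4 of the 6 libraries. Its counting interval there (-2.25 to 0.23) included 0. The joint entry hsa_piR_019914/hsa_piR_016742 is the other one past 2-fold in both. It stood at 33.6 against 16.7 and 36.9 against 17.1 normalized counts (-1.0 and -1.11). Its knockout libraries without LPS held 28, 25 and 2 reads. Set against the wild-type mean, the ratio was -0.50 with the lowest of them left out, and with LPS it was -0.91 without the knockout library of the middle size factor. With all entries centred on their median the ratio without LPS was -0.99, just short of 2-fold.

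Of the 22 entries lower in both tables, 16 (72.7%) were further from 0 with LPS, against 59.2% of all entries lower in both. The largest such gap was that of hsa_piR_015249, named here for it after its values were seen. It had 13.4 against 8.05 normalized counts without LPS (log2 ratio -0.73, from -1.47 to 0.00) and 26.8 against 4.34 with LPS (-2.63, from -3.50 to -1.76). The difference was -1.89 with a counting interval from -3.03 to -0.75.

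The 7 entries higher in 5-LOΔ cells in both tables included 0 that passed 2-fold in both, where 2.37% of all entries did. The joint entry hsa_piR_020490/hsa_piR_000775 stood at 10.6 in wild-type against 20.6 normalized counts in knockout cells without LPS, and at 5.54 against 20.3 with LPS. Its log2 ratios were 0.97 (0.35 to 1.59) and 1.88 (1.09 to 2.67), and with 1 wild-type library left out they ran from 0.79 to 1.19 and from 1.58 to 2.59. Its wild-type libraries stood at 13.6, 7.88 and 10.2 without and 9.89, 3.73 and 3.01 with LPS, each under the knockout mean of its table. The entry that adds a further name, hsa_piR_020490/hsa_piR_000775/hsa_piR_007979, had 27.7 against 48.1 and 23.8 against 50.4 normalized counts, with log2 ratios of 0.80 (0.40 to 1.19) and 1.08 (0.67 to 1.5).

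hsa_piR_015150 had 2.79 against 11.3 normalized counts without LPS, a log2 ratio of 2.01 (0.93 to 3.10), the highest in that table. Its wild-type libraries stood at 6.4, 1.97 and 0 and its knockout libraries at 8.98, 13.8 and 11.0, with no overlap. With 1 library left out at a time the ratio ran from 1.43 (wild-type library at 0 left out) to 3.51 (wild-type library at 6.4 left out). With LPS the means were 2.41 and 4.62, but 9 of the 13 knockout reads came from 1 library, and without it the ratio turned from 0.94 to -0.65. hsa_piR_020619 had 35.5 against 68.8 without and 33.9 against 49.5 normalized counts with LPS, with log2 ratios of 0.95 (0.62 to 1.29) and 0.55 (0.18 to 0.92). For hsa_piR_005076 the values were 27.1 against 37.8 and 29.3 against 52.0, with ratios of 0.48 (0.06 to 0.89) and 0.83 (0.44 to 1.21). Both counting intervals lay above 0 for 4 of the 42 entries, where this held for 23.8% of all entries, and both lay under 0 for 14 (24.1% of all entries). These shares are not matched for level either. The other 2 of the 7 were hsa_piR_016658 (22.4 against 30.5 and 20.8 against 37.5 normalized counts) and hsa_piR_015254 (18.1 against 21.8 and 25.2 against 29.9).

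Of the 13 entries with opposite signs, 8 were higher in knockout cells without LPS and lower with LPS, and 5 the reverse. Both counting intervals included 0 for 6 of them, against 44.7% of the 215 entries of any class with opposite signs. Both excluded 0 for 0 of the 13, against 26.5% of the 215, which are entries of any level and so not matched for the width of the intervals. The clearest by the smaller of its 2 ratios was hsa_piR_020499, with log2 ratios of 0.73 (-0.28 to 1.74) and -1.24 (-2.25 to -0.24). Its libraries without LPS stood at 0, 5.91 and 6.79 in wild type and 7.48, 5.29 and 8.28 in knockout, and with LPS at 11.6, 10.3 and 6.01 in wild type and 6.92, 2.40 and 2.46 in knockout. The groups overlap in both tables. With LPS the ratio was -0.99 without the knockout library of the middle size factor and -1.94 without that of the largest. Without LPS the ratio of 0.73 fell to 0.14 when the wild-type library at 0 was left out.

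hsa_piR_020466 had 38.7 against 29.7 normalized counts without LPS and 32.3 against 48.4 with LPS, ratios of -0.38 (-0.79 to 0.02) and 0.58 (0.21 to 0.96). Their difference of 0.97 had a counting interval from 0.42 to 1.52. hsa_piR_013350 (0.24 and -0.41) and hsa_piR_016677 (-0.25 and 0.38) had intervals that include 0 in both tables. For hsa_piR_016677 with LPS, though, the knockout libraries (9.23, 10.8 and 9.85) all lay above the wild-type libraries (6.98, 8.40 and 7.51). The entry hsa_piR_006001, named after its values were seen, had 9.83 against 35.2 normalized counts without LPS, a log2 ratio of 1.84 (1.25 to 2.43), and 15 against 13.9 with LPS (-0.11, from -0.72 to 0.51). Its 38 knockout reads with LPS were spread unevenly, as 9, 25 and 4, or 6.92, 29.9 and 4.93 normalized counts. The ratio with LPS was -1.34 without the highest of them and turned to 0.22 or 0.30 without either of the others. hsa_piR_021057, among the 5 lowest by level, was at least 2-fold higher without LPS (4.19 against 10.1 normalized counts, log2 ratio 1.26) and nearly equal with LPS (4.65 against 4.62). Its knockout libraries without LPS stood at 5.24, 4.23 and 20.7, and leaving out the highest gave a ratio of 0.18.

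Over all 42 entries, the difference between the ratio with and without LPS lay past its counting interval for 11, with 7 lower and 4 higher with LPS. Among all entries with a ratio in both tables it did so for 44.1%, and for 25.4% it was lower with LPS. Those entries are of any level, and the interval narrows with more reads. The shares therefore do not show whether the 42 differ less between the tables than other RNAs. The counting SE of a log2 ratio was 0.17 to 0.75 without and 0.17 to 0.67 with LPS over the 42. Whether LPS altered the knockout ratio of any entry beyond the spread between replicates was not tested. Single libraries are known in all 4 groups for only 10 of the 42, and no test was run on those either.

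**Figure D3:**
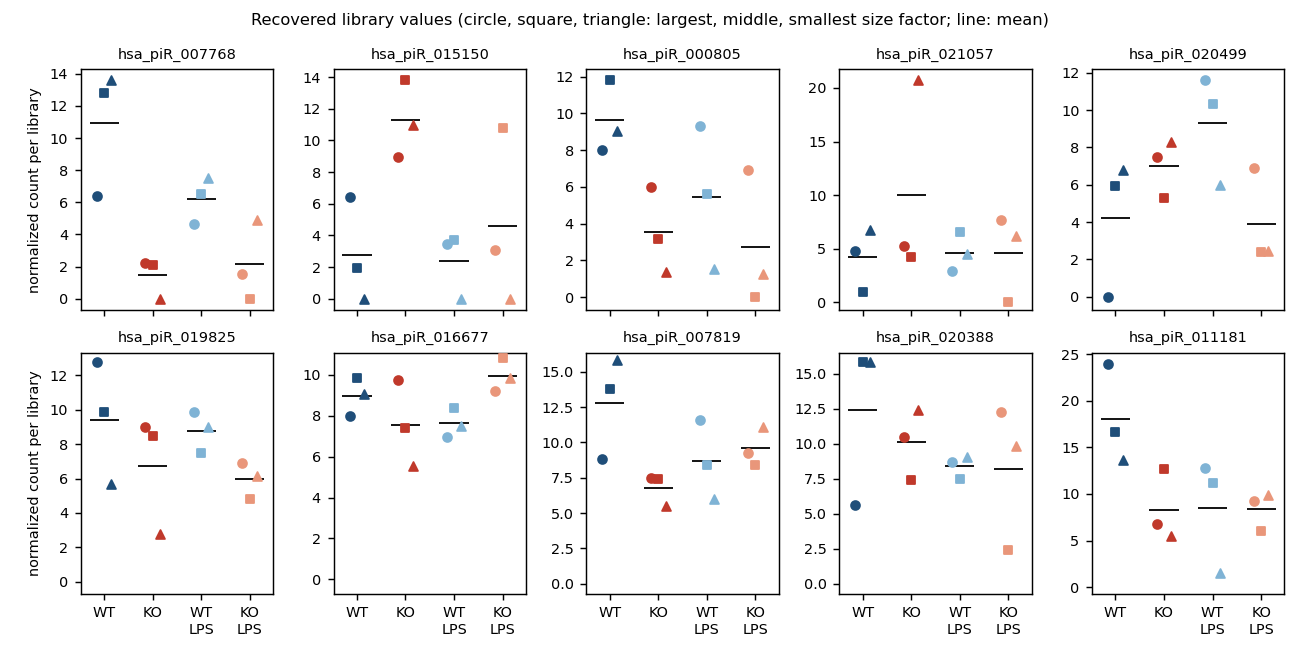
Normalized counts of single libraries for the 10 entries whose reads could be worked out in all 4 groups, with circle, square and triangle for the largest, middle and smallest size factor of a group and a line at the mean of the 3. Knockout values lie under all wild-type values without LPS for hsa_piR_007768, hsa_piR_000805, hsa_piR_007819 and hsa_piR_011181, and above them for hsa_piR_015150. With LPS, knockout values lie under all wild-type values for hsa_piR_019825 and above them for hsa_piR_016677.

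For entries whose means in a table were at most 20 and averaged at least 5, the libraries of the genotypes could be set side by side. Where reads came out in more than 1 way, groups count as apart only if every way gave this. Without LPS this was so for 21 of the 42, and in 8 of these (38.1%) every knockout library lay under every wild-type library, against 19.8% of the 101 entries of any class that could be compared. In 1 (4.76%, against 9.90%) every knockout library lay above. With LPS 13 could be compared, with 2 (15.4%, against 8.86%) under and 1 (7.69%, against 2.53%) above. With 3 libraries on each side an exact permutation test (two-sided) cannot go below p = 0.10, and none was run. In hsa_piR_007819 the wild-type libraries at 8.80, 13.8 and 15.8 lay above the knockout libraries at 7.48, 7.41 and 5.52 without LPS, while with LPS the values overlapped at 11.6, 8.40 and 6.01 against 9.23, 8.38 and 11.1. The difference between its ratios, 1.05, had a counting interval from -0.05 to 2.16, which includes 0.

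Of the 42 entries, 36 carry 1 piRNA name, 5 carry 2 and 1 carries 3. How the annotation tool assigns reads to a joint entry is not given in the sources used here. Joint entries were 14.3% of the 42, against 23.3% of the 219 piRNA entries in both tables and 28.9% of the 97 abundant ones. A name was shared with another entry by 10 of the 42, and with another of the 42 by 4. Whether entries with a shared name also share reads was not tested. None of the 42 had the same 4 means as any other entry.

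Entries that share names did not always go together. hsa_piR_006465 alone had log2 ratios of 0.17 (-0.19 to 0.53) and -0.29 (-0.62 to 0.04), while the joint entry hsa_piR_013745/hsa_piR_006465 had -0.95 (-1.47 to -0.42) and -1.28 (-1.80 to -0.76). In means these are 39.5 against 44.5 and 55.8 against 45.6 for the first, and 29.7 against 15.4 and 35.4 against 14.6 for the second. hsa_piR_016946 alone (-1.40 and -1.87) lay further from 0 than the 3 abundant joint entries that hold its name, which ran from -0.65 to -0.34 without LPS and from -1.11 to -0.67 with LPS. hsa_piR_019914/hsa_piR_016742 had -1.0 and -1.11, and the 3 abundant joint entries with hsa_piR_019914 had -0.71, -0.62 and -0.57 without LPS and -2.0, -1.51 and -1.57 with LPS. The low joint entry hsa_piR_017716/hsa_piR_004153, at 30.5 against 29.8 and 32.5 against 33.2, stood near equality (-0.03 and 0.03). hsa_piR_017716 alone, at 14678 against 12488 and 18126 against 13287 normalized counts, had -0.23 and -0.45.

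**Figure D4:**
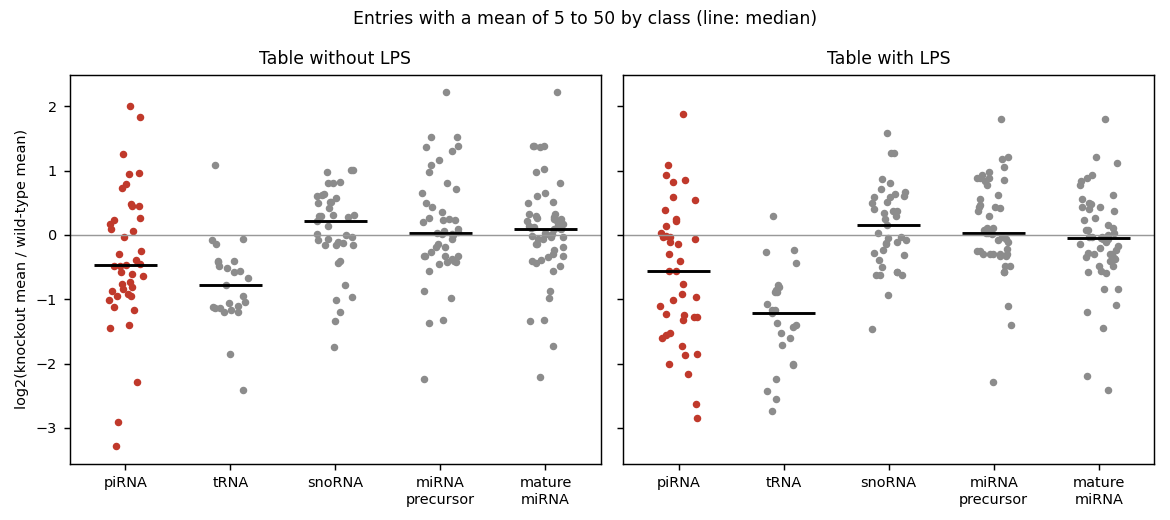
Log2 ratio of the knockout to the wild-type mean for every entry with a mean over the 4 columns of at least 5 and under 50 and no mean at 0, by class, without LPS (left) and with LPS (right), with a black line at the median of each class. The piRNA medians (-0.47 and -0.56) lie between those of tRNAs (-0.77 and -1.21) and those of snoRNAs (0.22 and 0.16), miRNA precursors (0.04 and 0.03) and mature miRNAs (0.09 and -0.05).

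Set beside other classes at the same level, the 42 piRNA entries were more often lower in 5-LOΔ cells than miRNAs and snoRNAs and less often than tRNAs, as counts and with no test of the difference. Of 25 tRNA entries with a mean from 5 to 50 and a ratio in both tables, 24 were lower in each table and 23 in both, with medians of -0.77 and -1.21. Of 39 snoRNA entries, 16 and 18 were lower, with medians of 0.22 and 0.16. The mature miRNAs at this level counted 55, with 23 and 33 lower and medians of 0.09 and -0.05. Same-sign shares were 92.0% for the tRNA entries, 69.2% for snoRNAs, 80.9% for miRNA precursors and 63.6% for mature miRNAs, and 69.0% for the piRNA entries. Whether reads of tRNAs are counted under the piRNA names was not tested.

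Along the range of piRNA levels, 84.5% of the 97 abundant entries had the same sign in both tables, 69.0% of the 42 low-level entries and 53.6% of the 28 entries under 5 that had a ratio in both. Within the 42, the same-sign count was 7 of 11 under 10, 11 of 14 from 10 to 20 and 11 of 17 from 20 to 50, so it did not follow the level there. The median log2 ratios were -0.29 and -0.16 for the abundant entries, with 58 of 97 lower in both tables, and -0.02 and 0.40 for those under 5, with 6 of 28 lower in both.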

How the data were processed

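Small RNA libraries (Lexogen kit, size-selected for precursor and mature miRNA) were sequenced from 12 samples in 4 groups of 3. The authors trimmed adapters, annotated reads against hg19 with omiRas and deposited 1 table without and 1 with LPS, whose signal columns hold the mean of normalized counts per genotype. Neither the aligner and its settings nor the scaling and the tool's version are given in the sources used here. The columns of the authors' own comparison (log2 fold change, p-value, FDR) were not used. The entries and lists were chosen with earlier results of these data known. Log2 ratios of means were taken with no pseudocount, and 2-fold stood in for a call. Size factors were fitted to means of at most 10, where whole reads came out in 1 way for 100% of values. For means over 10 and up to 20 this held for 98.5%, 98.3%, 0% and 100% (wild type, 5-LOΔ, wild type with LPS, 5-LOΔ with LPS). Values of that size moved off their printed digits came out whole in 15.3% to 38.5%. Counting intervals (95%, normal approximation on the log2 scale) use the size factors and cover counting error only, as reads carry no molecular identifiers in the tables. The recovery and intervals were tested on simulated data. The simulated reads held counting error only, so this does not show how the intervals do with spread between replicates. Entries were named by a rule on level, on the smaller of the 2 absolute log2 ratios (5 higher and 5 lower in both tables, 4 of opposite sign), on zeros and on the bounds, and others were chosen after their values were seen. The software was Python 3.11.15, numpy 2.4.6, pandas 2.3.3 and matplotlib 3.10.9.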

Additional observations from a re-analysis of the deposited data

How the results depend on the processing

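The counts and medians over the 42 entries were recomputed under other scalings, pseudocounts, filters and windows of level. The count of means at 0 was 0 in each window of level, and no entries were identical. With equal sums of all entries, 13 in place of 8 were at least 2-fold lower without LPS (13.0% of all entries) and the median there was -0.65 in place of -0.47. With equal sums of piRNA entries that median was -0.60. Adding 10 to every mean, which draws low entries towards 0 most, left 3 at least 2-fold lower and 1 higher without LPS (8 and 3 before), 8 lower and 0 higher with LPS (17 and 2 before), and medians of -0.22 and -0.28. Among the 31 entries with all 4 means at least 5, 14 were lower in both tables. Without LPS 3 of the 31 were 2-fold lower and 1 higher. With LPS 9 were 2-fold lower, and the median was -0.14 in place of -0.56. This filter removes entries with any mean under 5, be it in 1 genotype of a table or in both. Among the 31 with a mean from 10 to 50, 5 were 2-fold lower and 1 higher without LPS. Among the 25 with a mean from 5 to 20, 18 had the same sign, 2 were higher in both tables, 1 was 2-fold higher with LPS, and the medians were -0.61 and -0.91. Pseudocounts of 0.1 and 1 and centring on the median of all entries moved no count by over 1.5 times.

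With 1 library left out at a time, 4 to 6 of the 10 entries with reads in all groups had the same sign, against 6 with all libraries. The 4 came without the 5-LOΔ library with LPS of the middle size factor. The direction of single ratios turned without LPS for hsa_piR_011537 (-0.57 to 0.63 without the largest of the wild-type libraries, ranked by size factor) and hsa_piR_022650 (0.05 to -0.20 without that library, and to -0.55 without the 5-LOΔ library of the middle size factor). For hsa_piR_021057 the ratio without LPS went from 1.26 to 0.18 without the 5-LOΔ library of the smallest size factor. With LPS the near-zero ratios of hsa_piR_007819, hsa_piR_011181, hsa_piR_020388 and hsa_piR_021057 changed sign with 1 library left out. Where reads were known in 1 genotype only, its libraries were left out in turn against the mean of the other, an alternative chosen after seeing the data. The spread between replicates is not known for means over 20, which limits most of these entries. No paired analysis was possible because the deposited columns are means and the recovered libraries carry no replicate number.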

Other observations

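Besides the 219 piRNA entries in both tables, 140 were listed only without LPS and 95 only with LPS. None of these reached a mean of 5 over the 2 genotypes of its table, and the highest stood at 4.63 normalized counts, so no entry of the level described above was missing from the other table.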
